A study of Arabidopsis thaliana with 56 samples.

Results

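ABF3, a TF of the bZIP family that acts in the response to the hormone abscisic acid (ABA), was brought into the nucleus of root cells, and transcript levels were compared with those of cells that carried the empty vector (EV). The libraries were chosen by their labels: both libraries titled ABF3, which belong to batch 3, were set against the 3 EV libraries of that batch, which makes 2 ABF3 libraries out of 56 in the series. All groups used here are protoplasts, cells without their walls, from roots of 10-day-old Col-0 seedlings of Arabidopsis thaliana. In the TARGET assay they were transfected with a vector for 1 TF or with EV, and all of them, EV included, received 35 µM cycloheximide (CHX), which blocks translation, and 10 µM dexamethasone (DEX), which lets the TF fusion enter the nucleus. Cells that had taken up the vector were collected by their fluorescence, and poly-A RNA was sequenced. The 9 EV libraries of the 3 batches and the libraries of the other TFs, 15 of them in batch 3 and 3 of ABF1 in batch 1, serve as the background. The labels do not give the fluorescent marker of the ABF3 vector, so a difference that comes with the vector and one that comes with the TF cannot be told apart. Replicates were separate wells of a common transfection, so p-values measure only the spread between such wells.

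ABA is the hormone that plants make under drought and during seed maturation. When it binds its PYR/PYL receptors, these hold back the clade A PP2C phosphatases, which frees SnRK2 kinases to phosphorylate ABF3 and its relatives ABF1, ABF2 and ABF4. The ABFs bind ABA-responsive elements (ABREs), short words around the core ACGT in promoters, and ABF3 is known for its role in drought tolerance and in the closure of stomata. CHX is meant to limit the comparison to genes that respond to ABF3 without new proteins having to be made. According to the paper, the TF was expressed and translated before CHX was added. No ABF3 library without DEX was compared, so effects of ABF3 from before CHX cannot be told apart from later ones.

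The ABF3 libraries held 19923379 and 22809887 counts in genes, and the 3 EV libraries 12944485, 21864198 and 23251214. EV replicate 1 stood apart from the others. It had a count in 15816 genes, against 20418 and 20591 in the other EV libraries and 19225 and 20700 in the ABF3 libraries, and 16.8% of its counts came from 7 rDNA loci against 1.13% to 5.41% in the other 4 libraries. Its log2 CPM (CPM, counts relative to library size after TMM scaling) correlated with those of the other EV libraries at r = 0.910 and 0.912 across genes, which are not independent replicates, where the other EV pair gave 0.977 and the ABF3 pair 0.963. Calls that change without it are therefore given beside the results. Of 25 marker genes of root tissues and of green tissue, 15 were tested and 0 were called by edgeR or DESeq2, with an unadjusted p under 0.05 in 2. The summed level of the cortex and endodermis markers was 27.5 and 38.7 CPM with ABF3 and 26.8 to 44.5 CPM with EV, that of the stele markers 37.4 to 42.8 CPM and 28.1 to 39.9 CPM, that of the root cap and stem cell niche markers 6.43 and 6.74 CPM and 3.35 to 4.27 CPM, and that of the epidermis markers 0.951 and 2.24 CPM and 0 to 0.947 CPM. The green tissue markers summed to at most 0.569 CPM in any of the 5 libraries, and RBCS1A, RBCS2B and LHCB1.3 had 0 counts in all 5. The part that the root cap markers, which were higher in both ABF3 libraries, have in the results was not tested.

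The transfected gene itself checks the labels. ABF3 (AGI AT4G34000, chromosome 4, 16295334 to 16298285) stood at 4016 and 5217 CPM in its own libraries and at 14.1, 25.5 and 27.9 CPM in EV, a log2 fold change (log2FC, ABF3 minus EV) of 7.67 (SE 0.28, adjusted p = 4.1e-09). The value includes transcripts of the vector, and the gene was left out of all that follows.

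With ABF3 in the nucleus more genes rose than fell. By edgeR's quasi-likelihood test with Benjamini-Hochberg adjustment, 316 of 20066 genes tested (1.57%) were induced at an adjusted p under 0.05 and 47 (0.234%) were repressed. The induced genes had a median log2FC of 1.62, and 256 of them lay above 1. The repressed genes had a median of −0.81, and 15 lay below −1. In every induced gene both ABF3 libraries lay above all 3 EV libraries, and in every repressed gene both lay below them. Over all genes tested, 2937 (14.6%) had both ABF3 libraries above the 3 EV libraries and 2309 (11.5%) had them below. With so few libraries the number of calls changed when each of the 5 was left out in turn. A fit without 1 ABF3 library keeps 1 in that group, so a call lost there does not show that a single library carried it. The median log2FC of the 316 induced genes was 1.67 without ABF3 replicate 1 and 1.54 without ABF3 replicate 2. That of the 47 repressed genes was −0.82 and −0.84. Without ABF3 replicate 1 the test called 147 induced and 3 repressed genes and without ABF3 replicate 2 it called 93 and 23, whereas without EV replicate 1 it called 503 of 19971 (2.52%) and 242 (1.21%). Without EV replicate 2 the counts were 297 and 43, and without EV replicate 3 they were 230 and 27. With the EV libraries of batch 3 alone in the fit, without those of the other batches to estimate the spread, 106 genes were induced and 2 repressed, among them 104 of the 316 and 2 of the 47, with 10 of the 15 rises and 2 of the 10 falls named by size. Each of the 316 kept a positive and each of the 47 a negative log2FC in the 5 fits with a library left out and in that one. These are bulk measurements, in which fewer cells of a type and less RNA per cell cannot be told apart.

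The plot of EV replicate 1 sets the fits with and without that library side by side. It lay below both other EV libraries in 51.7% of all genes tested and in 207 of the 316 induced genes, with a median log2 ratio to the mean of the other EV libraries of −0.24 over all genes and of −0.40 over the induced genes. The median log2FC of the 316 was 1.49 without it, and all 316 and all 47 calls were kept. The log2FC was lower without it in 234 of the 316, by a median shift of −0.13, and it moved by over 1.5 times in 3 of them and in 1 of the 47, AT2G07641. Of the induced genes 40 had 0 counts in EV replicate 1, and so had 4390 of all genes tested, against 736 and 692 in the other EV libraries.

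**Figure D1:**
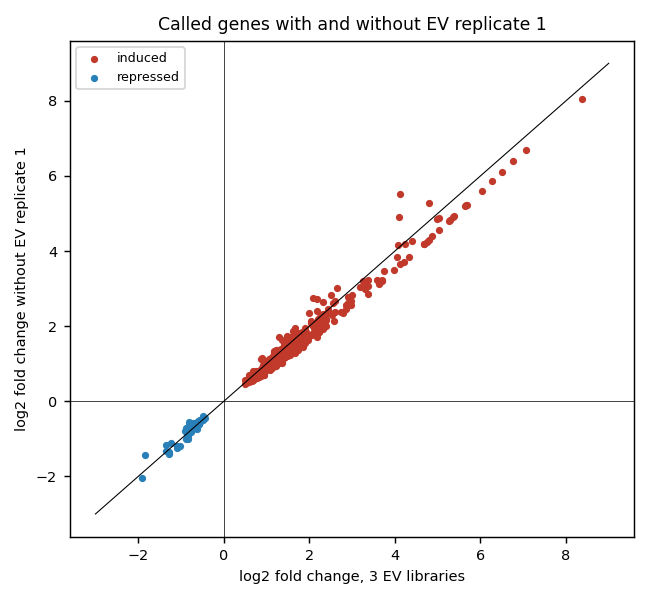
Log2 fold changes of called genes, ABF3 minus EV, with all 3 EV libraries of batch 3 (x axis) and without EV replicate 1 (y axis), each point 1 gene, with the line of equal values. Of the 363 called genes 345 are drawn, and 14 with at most 3 EV counts and 4 with a log2 fold change below −4 are left out. All drawn induced genes stay above 0 and all drawn repressed genes below it.

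The genes with the largest rises were nearly silent in EV cells, which a ranking by log2FC favours. The 15 named by size had to reach a mean log2 CPM of 1, as 298 of the 316 induced genes did. Some larger rises lay under that level, and 2 are given as values chosen after they were seen. GASA3 had a log2FC of 10.4 (486 against 0 counts, at least 208-fold) and AT5G45690 of 10.1 (393 against 0 counts, at least 168-fold). Among the 15 named by size, the lower ABF3 library was at 8.70 CPM or more, and the highest EV value was 6.21 CPM. The steepest changes were bounds. AT1G17615, which is annotated as a TIR-NBS disease resistance protein, had 9.59 and 30.9 CPM (252 and 923 counts) with ABF3 and 0 counts in all 3 EV libraries, and was at least 503-fold higher than the limit that 0 counts allow (3 counts over the EV group). Its ABF3 libraries differed, and its call ended without ABF3 replicate 2 (adjusted p from 8.2e-04 to 0.055) and in DESeq2 (0.16). AT5G18450, annotated with the integrase-type DNA-binding domain of AP2/ERF factors, had 17.58 and 20.7 CPM with ABF3 and 0 counts in all 3 EV libraries, at least 463-fold higher (adjusted p = 8.3e-05). These are 2 of 11 induced genes with 0 counts in all 3 EV libraries.

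Transporters of guard cell and ABA physiology were among these genes. ALMT12, an anion channel of the guard cell plasma membrane that takes part in stomatal closure, had 23.0 and 26.4 CPM with ABF3 and 0, 0.109 and 0 CPM in EV replicates 1 to 3. The ratio of pooled levels was 597, with a 95% counting interval from 204 to 2896 (adjusted p = 3.5e-05). ABCG25, a plasma membrane transporter that exports ABA from cells, was at 33.2 and 55.1 CPM with ABF3 and 0, 0.619 and 0.657 CPM with EV (log2FC 6.51, SE 0.56, adjusted p = 2.7e-05). Both ABF3 libraries lay far above the EV libraries in each gene, although EV replicate 1 contributed a 0 to both. Without that library the log2FC of ABCG25 was 6.10. CYP86A7, a cytochrome P450 of the family that hydroxylates fatty acids, stood at 26.3 and 49.6 CPM with ABF3 and 0, 0.109 and 0.164 CPM with EV (log2FC 8.38, SE 0.79, adjusted p = 5.7e-05).

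HSFC1 and AT5G50360 were also detected in every EV library. HSFC1 (AGI AT3G24520, chromosome 3, 8941066 to 8942874), the single class C heat shock factor of Arabidopsis, was at 167 and 189 CPM with ABF3 and 4.34, 6.09 and 6.21 CPM with EV (log2FC 4.99, SE 0.23, adjusted p = 4.0e-08). AT5G50360, annotated with a von Willebrand factor A domain, was at 106 and 101 CPM with ABF3 and 2.17, 2.99 and 4.07 CPM with EV (log2FC 5.04, SE 0.38, adjusted p = 8.1e-06). In both genes EV replicate 1 was the lowest of the EV libraries, and without it the log2FC was 4.86 and 4.87. The HSFC1 locus overlaps AT3G24518, and since no source used here says if reads were counted by strand, reads of the pair cannot be told apart.

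The other 8 genes named for their rise lay between 8.70 and 26.9 CPM with ABF3 and at or below 1.68 CPM in EV, with EV replicate 1 at 0 in all of them. They include DRT112, a plastocyanin (11.5 and 17.8 CPM with ABF3 and 0, 0.437 and 0.329 CPM with EV, log2FC 5.68), and HHP3, a member of the heptahelical membrane proteins (22.7 and 15.4 CPM with ABF3 and 0, 1.13 and 0.789 CPM with EV, log2FC 4.80). The log2FC was 6.04 for AT5G15500, an ankyrin repeat protein, 5.29 for AT4G27560, a UDP-glycosyltransferase, 5.04 for AT1G30860, a RING/U-box protein, 4.87 for AT5G45310, a coiled-coil protein, and 5.67 and 5.27 for AT5G66580 and AT1G27461, which are annotated as uncharacterized. Of the 15 genes, 6 were called with each of the 5 libraries left out in turn: AT5G18450, ALMT12, CYP86A7, ABCG25, AT5G50360 and HSFC1. Without ABF3 replicate 1 the call was kept by 10 of the 15 and without ABF3 replicate 2 by 7, without EV replicate 2 by 13 and without EV replicate 3 by 14. DRT112 lost it without ABF3 replicate 2 (adjusted p = 0.067) and HHP3 without ABF3 replicate 1 (0.086), and AT4G27560 passed with the EV library 1 or 3 left out but not without ABF3 replicate 1 (0.24), ABF3 replicate 2 (0.15) or EV replicate 2 (0.058), nor in DESeq2 (0.058).

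**Figure D2:**
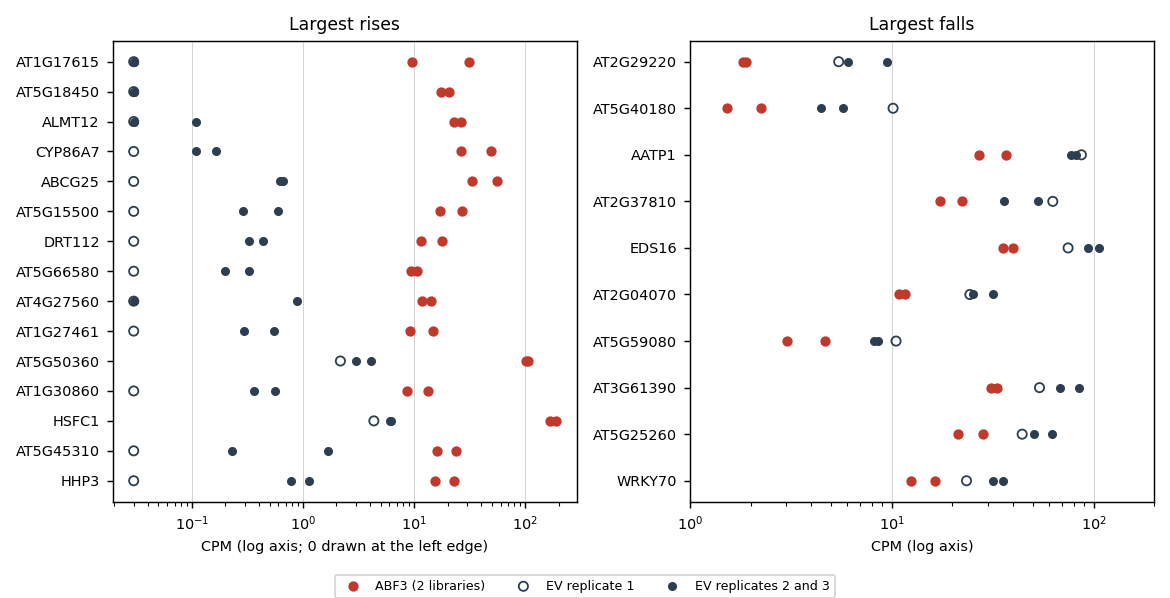
Level in CPM (log axis) of the 15 genes with the largest rise (left) and the 10 with the largest fall (right) among called genes with a mean log2 CPM of at least 1, in each of the 2 ABF3 and 3 EV libraries of batch 3. As the choice of genes required, both ABF3 libraries lie right of all EV libraries on the left and left of all of them on the right. EV replicate 1 (open circles) is at 0 for 13 of the 15 rises.

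Of the called falls, 4 were larger than those named here but lay under the level minimum of a mean log2 CPM of 1, and are given as values chosen after they were seen. AT2G40720 had 0 counts with ABF3 and 2.52, 2.19 and 2.00 CPM with EV, AT3G14740 0 counts and 1.61, 1.31 and 1.28 CPM, AT2G07641 0 and 0.0335 CPM against 6.02, 0.911 and 1.22 CPM, and AT1G52900 0 and 0.1004 CPM against 3.57, 1.79 and 1.22 CPM. Above that level the falls were as follows. AATP1, annotated as AAA-ATPase 1, was at 37.0 and 27.1 CPM with ABF3 and 87.0, 82.1 and 77.4 CPM with EV and was 2.56-fold lower (log2FC −1.36, SE 0.19, adjusted p = 0.0011). EDS16, the isochorismate synthase that feeds salicylic acid synthesis, was at 35.6 and 40.1 CPM with ABF3 and 74.8, 94.3 and 106 CPM with EV and was 2.43-fold lower (log2FC −1.28, SE 0.17, adjusted p = 0.0011). These 2 of the 10 falls named by size kept their call with any of the 5 libraries left out. WRKY70, a TF of the salicylic acid response, was at 12.5 and 16.4 CPM with ABF3 and 23.5, 31.7 and 35.8 CPM with EV (log2FC −1.07, SE 0.23, adjusted p = 0.03), and its call was lost without ABF3 replicate 1 (adjusted p = 0.35) or 2 (0.086) and without EV replicate 2 (0.069) or 3 (0.098).

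The remaining 7 falls were between −1.08 and −1.90 on the log2 scale. AT2G29220, annotated as a lectin receptor kinase, stood at 1.9 and 1.84 CPM with ABF3 and 5.46, 6.05 and 9.5 CPM with EV (log2FC −1.90), AT5G40180, an acyl-esterase family member, at 1.52 and 2.24 CPM with ABF3 and 10.2, 4.45 and 5.75 CPM with EV (−1.83), and AT2G37810, of the C1 domain family, at 22.4 and 17.37 CPM with ABF3 and 62.8, 36.2 and 52.9 CPM with EV (−1.35). AT2G04070, a MATE efflux family member, had a log2FC of −1.27, AT5G59080 of −1.23, AT3G61390, a RING/U-box protein, of −1.10 and AT5G25260, of the SPFH/band 7 family, of −1.08. In each, the lowest EV library was above the higher ABF3 library, as the choice of these genes required. Without ABF3 replicate 1 the call was kept by 2 of the 10 falls and without ABF3 replicate 2 by 3, without EV replicate 2 by 8, without EV replicate 3 by 5 and without EV replicate 1 by all 10. AT5G59080 overlaps AT5G59070, and AT5G25260 overlaps AT5G25265.

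ABRE words stood in the promoters of many induced genes. Promoter windows of 250 bases before to 50 after each annotated gene start (300 bases) were cut from the RefSeq TAIR10.1 genome and searched on both strands for the word ACGTGNC, which holds the core of the ABRE and overlaps the G-box CACGTG, with overlapping matches counted separately. Shown are the 250 bases before the start of 5 genes that rose and hold the word, and of HSFC1, which rose and holds none. They are written 5′ to 3′ on the strand of the gene, with the word or its reverse complement in capitals. The regions are chr5:20506355-20506604 (minus strand) for AT5G50360, chr1:27088249-27088498 (minus) for ABCG25, chr3:3585851-3586100 (minus) for PP2CA, chr5:21236771-21237020 (plus) for RD29B, which RefSeq names LTI65, chr2:16780369-16780618 (minus) for EM6, which RefSeq names GEA6, and chr3:8940816-8941065 (plus) for HSFC1.
AT5G50360: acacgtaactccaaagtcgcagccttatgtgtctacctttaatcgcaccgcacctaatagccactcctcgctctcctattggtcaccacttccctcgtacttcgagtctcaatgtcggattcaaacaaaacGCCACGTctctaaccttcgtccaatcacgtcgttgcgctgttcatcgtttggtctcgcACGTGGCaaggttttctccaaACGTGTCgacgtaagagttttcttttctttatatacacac
ABCG25: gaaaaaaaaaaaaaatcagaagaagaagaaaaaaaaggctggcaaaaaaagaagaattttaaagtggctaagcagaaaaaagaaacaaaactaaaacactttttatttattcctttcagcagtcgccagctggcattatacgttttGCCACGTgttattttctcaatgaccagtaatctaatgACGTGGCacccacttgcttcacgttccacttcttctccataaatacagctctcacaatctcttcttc
PP2CA: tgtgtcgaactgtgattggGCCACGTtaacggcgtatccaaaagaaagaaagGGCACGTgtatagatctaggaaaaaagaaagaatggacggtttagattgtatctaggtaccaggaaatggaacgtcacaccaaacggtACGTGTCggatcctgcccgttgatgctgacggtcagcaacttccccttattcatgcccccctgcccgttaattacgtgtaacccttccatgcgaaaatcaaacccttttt
RD29B: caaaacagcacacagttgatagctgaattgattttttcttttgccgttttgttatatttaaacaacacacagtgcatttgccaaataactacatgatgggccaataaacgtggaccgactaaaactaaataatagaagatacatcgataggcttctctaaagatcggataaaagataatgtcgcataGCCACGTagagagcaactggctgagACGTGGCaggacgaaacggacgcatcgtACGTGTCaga
EM6: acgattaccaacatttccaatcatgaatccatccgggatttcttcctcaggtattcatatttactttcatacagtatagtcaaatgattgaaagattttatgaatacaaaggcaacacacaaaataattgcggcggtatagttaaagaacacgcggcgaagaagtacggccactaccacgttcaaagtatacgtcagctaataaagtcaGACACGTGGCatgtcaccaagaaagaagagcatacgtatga
HSFC1: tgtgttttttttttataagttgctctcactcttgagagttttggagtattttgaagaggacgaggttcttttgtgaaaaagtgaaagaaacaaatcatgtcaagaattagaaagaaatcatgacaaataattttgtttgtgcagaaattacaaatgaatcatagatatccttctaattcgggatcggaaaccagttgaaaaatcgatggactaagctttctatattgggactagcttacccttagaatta

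AT5G50360, PP2CA and RD29B hold 3 words each, and ABCG25 and EM6 hold 2. In RD29B, whose promoter is a common reporter of ABA, all 3 lie close to the start. In EM6 the 2 words overlap on opposite strands around a G-box. A match is a description of letters and not a binding site, and the window of HSFC1 without a match says only that these letters are not in it.

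Of the 316 induced genes, 137 (43.4%, 95% Wilson interval 38.0% to 48.9%) held the word in their window, against 2307 of all 20066 genes tested (11.5%). Of the 47 repressed genes 1 did (2.13%, 0.377% to 11.1%). A pair of words or more was found in 60 induced genes (19.0%) and in 538 of all genes (2.68%). The share of genes that were induced rose with the number of words: 179 of 17759 genes without a word (1.01%), 77 of 1769 with 1 (4.35%), 42 of 434 with 2 (9.68%) and 18 of 104 with 3 or more (17.3%). The median log2FC of these classes was −0.02, 0.11, 0.27 and 0.64. All but 1 of the repressed genes were in the class without a word. The median GC content of the windows was 33.0% for induced genes, 31.7% for repressed genes and 32.0% for all. The intervals cover counting error only, and genes are not independent replicates.

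**Figure D3:**
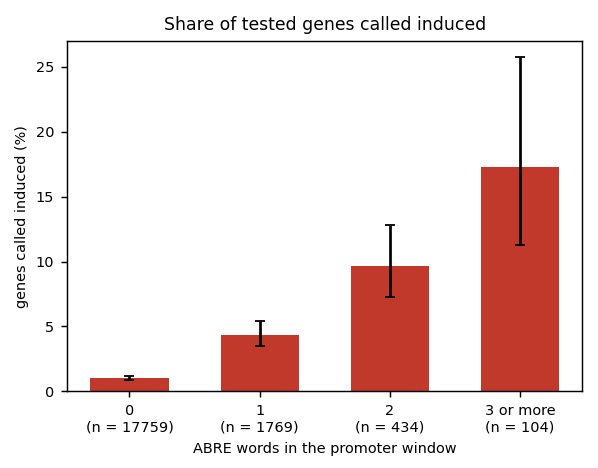
Share of tested genes called induced by ABF3 (%, bars, axis from 0) by the number of ACGTGNC words in the 300-base promoter window, with 95% Wilson intervals and the number of genes in each class. The share is 1.01% without a word and 17.3% with 3 or more.

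The words lay mostly in the middle of the window, in the induced genes and in all genes tested. By bins of 50 bases from 250 bases before the start, the induced genes held 15, 37, 43, 58, 46 and 23 of their 222 words. These are 6.76%, 16.7%, 19.4%, 26.1%, 20.7% and 10.4%. Of the 2974 words of all genes tested, the same bins held 10.4%, 10.7%, 17.3%, 26.9%, 20.4% and 14.2%, with 310 and 422 words at both ends. The peak from 100 to 50 bases before the start was thus not particular to induced genes. The difference between the profiles was not tested. Of the 15 largest rises 8 held a word and of the 10 falls named by size 0, with an interval up to 27.8%. Induced genes outside the gene lists described next held it in 114 of 280 cases (40.7%, interval 35.1% to 46.6%), and those on a list in 23 of 36 (63.9%, 47.6% to 77.5%). Genes that were induced only when EV replicate 1 was left out held it in 53 of 187 cases (28.3%), and all genes called without that library in 190 of 503 (37.8%).

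Genes of the ABA pathway and of other stress, hormone and metabolic routes were then examined through 18 lists. The lists hold 209 genes, of which 177 were tested. Members and lists were chosen with earlier results of these data known. Counts on the lists, and the share of their induced genes with an ABRE word, are therefore descriptions and no independent evidence. Of these, 36 were induced and 0 were repressed by edgeR, where an unadjusted p under 0.05 with a negative log2FC was found in 5 and DESeq2 called 2 repressed. Over all 20066 genes the median log2FC was 0.00 and the unadjusted p was under 0.05 in 2590. Of all genes tested, 1.57% were induced, 0.234% were repressed and 14.6% had both ABF3 libraries above all 3 EV libraries. The counts of each list below are to be read beside these shares. The plot of the lists gives every member. Without EV replicate 1 all 36 calls were kept, and the log2FC was lower in 32 of the 36, with shifts between −0.48 and 0.11. With the EV libraries of batch 3 only, 14 of the 36 were called. Leaving out EV replicate 2 kept 32 calls, EV replicate 3 kept 27, ABF3 replicate 1 kept 20 and ABF3 replicate 2 kept 14. The 14 that kept their call under all 5 were PP2CA, HAI1, HAI2, ABCG25, AT5G50360, CYP707A1, ERD10, EM1, EM6, NAC032, HSFA1E, HSFC1, SIP2 and PUB19.

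**Figure D4:**
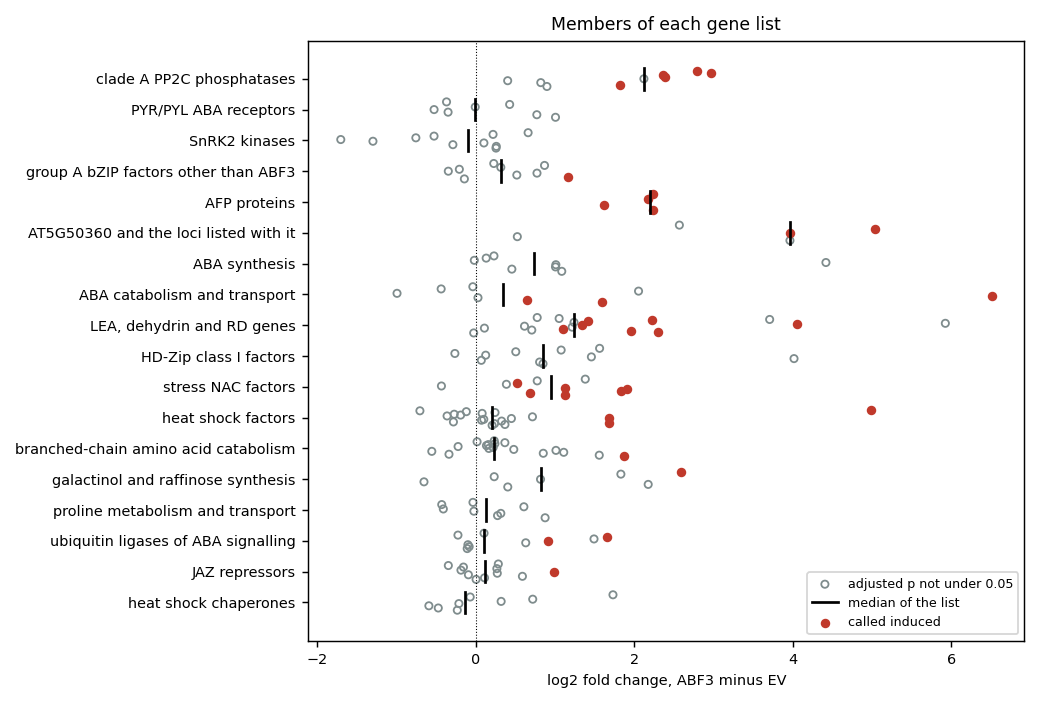
Log2 fold change, ABF3 minus EV, of the tested members of 18 gene lists, with called genes filled and the median of each list as a bar. HB40, with 0 counts in all 3 EV libraries, is not drawn. Medians lie at 2.12 for the clade A PP2C phosphatases and 2.1995 for the AFP proteins, and at −0.01 for the receptors and −0.09 for the SnRK2 kinases. The phosphatase median is the value of AHG1, a gene of low level that was not called.

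At the top of the pathway, receptor and kinase genes did not pass the test, while 5 of the 9 phosphatase genes that link them rose. All 9 clade A PP2C genes, which encode negative regulators of ABA signalling, had both ABF3 libraries above the 3 EV libraries. The share over all genes tested was 14.6%. The median log2FC of the list was 2.12, which is the value of AHG1, a gene of low level that was not called. PP2CA, which acts on SnRK2s and on guard cell ion channels, stood at 391.9 and 459 CPM with ABF3 and 53.9, 102 and 87.0 CPM with EV, a 5.23-fold rise (log2FC 2.39, SE 0.27, adjusted p = 2.2e-04). HAI2, of the highly ABA-induced subgroup, was at 272 and 326 CPM with ABF3 and 13.1, 54.7 and 45.7 CPM with EV, a 7.83-fold rise (log2FC 2.97, SE 0.40, adjusted p = 9.5e-04). HAI1, of the same subgroup, was at 194 and 238 CPM with ABF3 and 25.6, 56.2 and 43.7 CPM with EV (log2FC 2.36, SE 0.29, adjusted p = 4.6e-04). In all 3 genes EV replicate 1 was the lowest library, most of all in HAI2, whose log2FC was 2.57 without it.

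HAI3 was at 52.1 and 48.7 CPM with ABF3 and 1.68, 8.89 and 10.7 CPM with EV (log2FC 2.79, SE 0.51, adjusted p = 0.0098), and ABI2, whose dominant mutant is ABA insensitive, at 79.3 and 86.0 CPM with ABF3 and 10.1, 28.5 and 31.1 CPM with EV (log2FC 1.82, SE 0.35, adjusted p = 0.015). Without ABF3 replicate 1 the adjusted p was 0.089 for HAI3 and 0.096 for ABI2, and without ABF3 replicate 2 it was 0.07 and 0.11. ABI1, the closest relative of ABI2, was at 70.6 and 66.6 CPM with ABF3 and 21.5, 45.3 and 43.2 CPM with EV (log2FC 0.90, adjusted p = 0.07), and HAB1 at 52.2 and 55.4 CPM with ABF3 and 22.7, 33.2 and 35.3 CPM with EV (log2FC 0.82, adjusted p = 0.063). Neither passed the test with all libraries, and both passed it without EV replicate 1 (0.0079 and 0.043). EV replicate 1 lay below both other EV libraries in 7 of the 9 phosphatase genes. HAB2 and AHG1, a phosphatase of seeds that was at or below 2.34 CPM everywhere, did not pass (log2FC 0.40 and 2.12).

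Of the 14 PYR/PYL receptor genes, 7 were tested, 0 passed in edgeR with all libraries or without EV replicate 1 and 0 in DESeq2, 1 had an unadjusted p under 0.05, and the median log2FC was −0.01. Of the 10 SnRK2 genes, all tested, 0 passed in those fits, 2 had an unadjusted p under 0.05, and the median was −0.09. The contrast of these lists with the phosphatases is one of counts and was not tested.

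Among the factors downstream, the AFP proteins, which bind ABI5 and related bZIP factors and dampen their action, were induced in 4 of 4 genes (median log2FC 2.1995). TMAC2, also called AFP4, was at 81.5 and 116 CPM with ABF3 and 8.9, 30.5 and 23.0 CPM with EV (log2FC 2.23, SE 0.34, adjusted p = 0.0029). AFP1 was at 37.0 and 42.4 CPM with ABF3 and 2.87, 13.4 and 8.67 CPM with EV (log2FC 2.23, SE 0.42, adjusted p = 0.013), AFP3 at 45.9 and 61.2 CPM with ABF3 and 2.24, 16.9 and 15.9 CPM with EV and AFP2 at 18 and 22.02 CPM with ABF3 and 3.99, 7.83 and 7.52 CPM with EV. EV replicate 1 was the lowest library in all 4, with a median log2 ratio to the other EV libraries of −1.65, and without it the log2FC was 1.88, 1.85, 1.71 and 1.38 for TMAC2, AFP1, AFP3 and AFP2, with 4 of 4 called. Without ABF3 replicate 2 none of the 4 was called (adjusted p = 0.06, 0.11, 0.22 and 0.17), without ABF3 replicate 1 only TMAC2 was, and without EV replicate 3 AFP1 (0.055) and AFP3 (0.066) were not. AFP1 overlaps AT1G69270 and AFP2 overlaps AT1G13750.

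Of the other group A bZIP factors, to which ABF3 belongs, 1 of 9 tested was induced, and 2 without EV replicate 1. ABF2 was at 28.8 and 28.1 CPM with ABF3 and 9.53, 12.7 and 15.6 CPM with EV (log2FC 1.17, SE 0.23, adjusted p = 0.019), with no overlap between the groups, but the call was lost without ABF3 replicate 1 (adjusted p = 0.15), ABF3 replicate 2 (0.11) or EV replicate 2 (0.052). ABF4 stood at 73.4 and 86.3 CPM with ABF3 and 59.1, 54.3 and 54.0 CPM with EV and did not pass (log2FC 0.52, adjusted p = 0.086). Of AT5G50360 and the 5 loci listed with it, 5 were tested and 2 induced, and 3 without EV replicate 1. AT3G48510, the other one, was at 4.64 and 2.95 CPM with ABF3 and 0, 0.437 and 0.23 CPM with EV (log2FC 3.97, SE 0.94, adjusted p = 0.049). These low values were called without EV replicate 2 but not without EV replicate 3 (adjusted p = 0.12), ABF3 replicate 1 (0.31) or 2 (0.12).

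Of 8 genes tested for ABA catabolism and transport, 3 rose. CYP707A1, an ABA 8′-hydroxylase of the main route by which ABA is broken down, was at 211 and 222 CPM with ABF3 and 68.0, 79.5 and 68.8 CPM with EV (log2FC 1.59, SE 0.17, adjusted p = 1.3e-04). CYP707A3, another ABA 8′-hydroxylase, was at 235 and 252 CPM with ABF3 and 131, 163 and 170.1 CPM with EV (log2FC 0.65, SE 0.14, adjusted p = 0.026), with no overlap. The latter call was lost without ABF3 replicate 1 (adjusted p = 0.14) or 2 (0.19). ABCG25 was the other gene that rose. The median of the list was 0.34, 2 of its genes had both ABF3 libraries below the EV libraries, 4 were induced without EV replicate 1, and DESeq2 called 1 repressed. On the synthesis side 0 of 8 genes passed in edgeR, 3 had an unadjusted p under 0.05, and 2 passed without EV replicate 1 and 2 in DESeq2. NCED3, the dioxygenase that limits ABA synthesis under drought, was at 311 and 308 CPM with ABF3 and 89.0, 205 and 166 CPM with EV (log2FC 1.01, adjusted p = 0.077, and 0.02 without EV replicate 1, which held its lowest value).

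LEA proteins and dehydrins protect cells that dry out and are textbook outputs of ABA. Of 21 such genes 17 were tested and 7 induced, 14 had both ABF3 libraries above the EV libraries, and the median log2FC was 1.24. Over all genes tested 1.57% were induced and 14.6% had both ABF3 libraries above the EV libraries. EM6, an LEA protein of the mature seed, rose 16.6-fold, from 3.99, 5.5 and 8.84 CPM in EV to 79.2 and 127 CPM (log2FC 4.05, SE 0.47, adjusted p = 2.7e-04). EM1, its relative, was at 53.2 and 71.6 CPM with ABF3 and 25.2, 24.2 and 24.9 CPM with EV (log2FC 1.33, SE 0.18, adjusted p = 9.5e-04). ERD10, an abundant dehydrin, was at 439.7 and 431 CPM with ABF3 and 150.1, 239 and 218 CPM with EV (log2FC 1.104, SE 0.17, adjusted p = 0.0031). All 3 were free of overlap between the groups, and in EM1 the EV libraries were nearly equal.

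RD29B was at 54.0 and 72.9 CPM with ABF3 and 5.11, 17.8 and 15.2 CPM with EV (log2FC 2.301, SE 0.36, adjusted p = 0.0038, and log2FC 1.94 without EV replicate 1), and its call ended without ABF3 replicate 2 (adjusted p = 0.067). RD29A, its neighbour in the genome with a promoter known for cold and drought response through DREB factors, was at 103 and 126 CPM with ABF3 and 96.0, 139 and 116 CPM with EV (log2FC −0.03, SE 0.21, adjusted p = 0.98), with the ABF3 values inside the EV range. LEA7 was at 79.3 and 104 CPM with ABF3 and 6.94, 28.9 and 22.2 CPM with EV (log2FC 2.23, SE 0.43, adjusted p = 0.015), LEA4-5 at 138 and 169.8 CPM with ABF3 and 33.3, 78.1 and 61.3 CPM with EV (log2FC 1.41, SE 0.30, adjusted p = 0.025) and the dehydrin RAB18 at 51.4 and 58.2 CPM with ABF3 and 8.76, 21.6 and 11.6 CPM with EV (log2FC 1.96, SE 0.43, adjusted p = 0.035). Their EV values varied, with EV replicate 1 the lowest in each as in 15 of the 17 genes. None of these 3 was called without ABF3 replicate 1 (adjusted p = 0.071, 0.1 and 0.16), without ABF3 replicate 2 (0.14, 0.19 and 0.18) or without EV replicate 3 (0.054, 0.072 and 0.12). Without EV replicate 1 the list had 10 induced genes, and the log2FC was 1.84, 1.14 and 1.73 for LEA7, LEA4-5 and RAB18. RAB18 overlaps AT5G66410 and LEA7 overlaps AT1G52695.

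**Figure D5:**
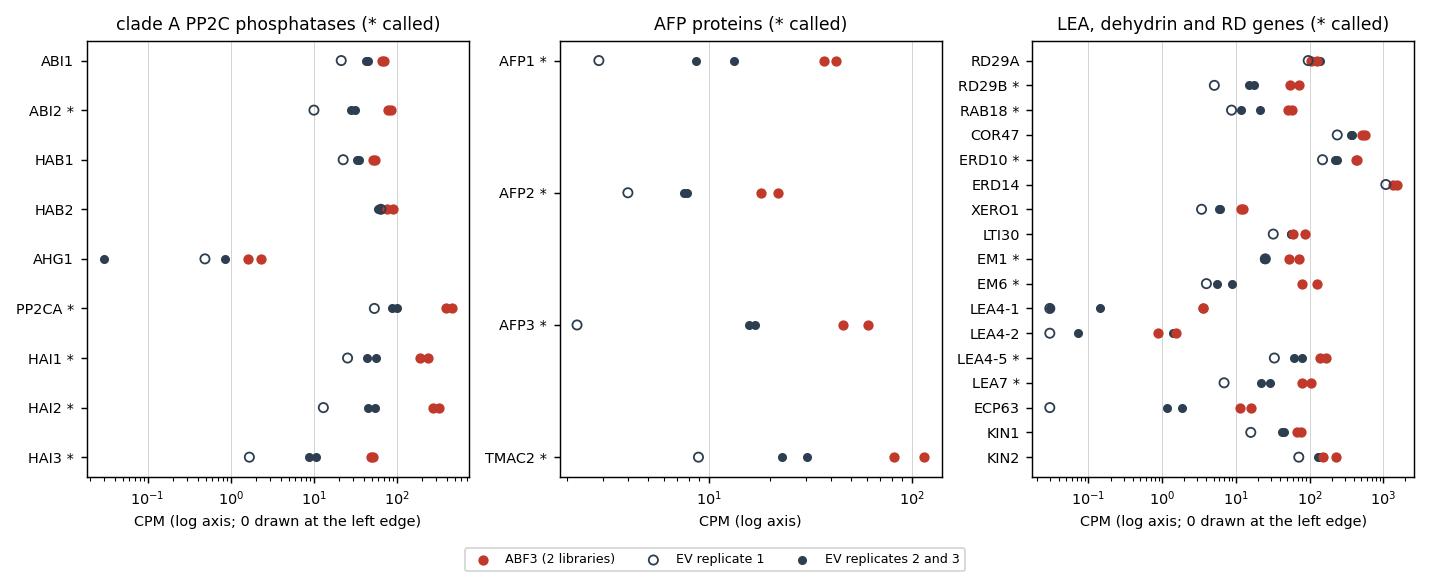
Level in CPM (log axis) of the tested clade A PP2C phosphatases, AFP proteins and LEA, dehydrin and RD genes in each ABF3 and EV library of batch 3, with called genes marked by a star. ABF3 libraries lie to the right of the EV libraries in all 9 phosphatase genes, and EV replicate 1 (open circles) is the lowest EV library in 7 of them.

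Stress NAC factors, TFs of drought and senescence, were induced in 6 of 10 genes, with a median of 0.95 and 8 of 10 above the EV libraries. The shares over all genes tested were 1.57% induced and 14.6% above the EV libraries. NAC032 was at 110.3 and 135 CPM with ABF3 and 34.7, 35.2 and 28.5 CPM with EV (log2FC 1.91, SE 0.21, adjusted p = 2.2e-04). RD26, also known as NAC072, was at 331 and 413 CPM with ABF3 and 57.0, 141 and 114 CPM with EV (log2FC 1.84, SE 0.32, adjusted p = 0.0068), and NAC019 at 443 and 526 CPM with ABF3 and 167, 259 and 242 CPM with EV (log2FC 1.12, SE 0.20, adjusted p = 0.008). In each the ABF3 libraries were higher than every EV library, and in RD26 and NAC019 EV replicate 1 was the lowest. RD26 and NAC019 lost the call without ABF3 replicate 2 (adjusted p = 0.082 and 0.11). NAP, a factor of leaf senescence, was at 81.1 and 98.8 CPM with ABF3 and 26.4, 42.5 and 53.9 CPM with EV (log2FC 1.13, adjusted p = 0.021), and was lost without ABF3 replicate 1 (0.08), ABF3 replicate 2 (0.19) or EV replicate 2 (0.053). NAC055 (log2FC 0.68, adjusted p = 0.0498) and NAC102 (0.52, 0.049) passed narrowly, were lost without ABF3 replicate 2 (0.39 and 0.38), EV replicate 2 (0.069 and 0.062) or EV replicate 3 (0.074 and 0.11), and NAC102 overlaps AT5G63780. Without ABF3 replicate 2 the list kept 1 of its 6 calls, and without EV replicate 2 it kept 3.

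Heat shock factors were induced in 3 of 19 genes, while 0 of 8 heat shock chaperone genes passed in edgeR (1 at an unadjusted p under 0.05, and 1 repressed in DESeq2) and their median was −0.14. Besides HSFC1 these were HSFA1E, of the class that starts the heat response, at 50.9 and 57.4 CPM with ABF3 and 19.5, 15.4 and 15.8 CPM with EV (log2FC 1.68, SE 0.16, adjusted p = 5.7e-05), and HSFA6B, a factor known to act downstream of ABA, at 192 and 243 CPM with ABF3 and 25.7, 91.3 and 86.1 CPM with EV (log2FC 1.68, SE 0.37, adjusted p = 0.034). HSFA6B had its lowest value in EV replicate 1 (log2FC 1.29 without it) and was not called without ABF3 replicate 1 (adjusted p = 0.13), ABF3 replicate 2 (0.21) or EV replicate 3 (0.056). HSP90-1 had a log2FC of −0.59 (adjusted p = 0.072) and passed without EV replicate 1 (0.035). Heat shock chaperones are the classic targets of HSFs in the heat response. Since CHX was present in all libraries, chaperone levels here cannot show what proteins made from the induced HSF transcripts would do.

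Single genes of other routes rose. SIP2, an alkaline alpha-galactosidase that splits raffinose, was the 1 induced gene of 7 tested for galactinol and raffinose metabolism, at 77.6 and 77.5 CPM with ABF3 and 14.5, 12.6 and 11.7 CPM with EV (log2FC 2.59, SE 0.23, adjusted p = 3.0e-05). BCAT2, a transaminase of the branched-chain amino acids, was the 1 induced of 17 tested for their catabolism, at 17.39 and 18.5 CPM with ABF3 and 4.34, 4.63 and 5.75 CPM with EV (log2FC 1.87, SE 0.32, adjusted p = 0.0068), and was not called without ABF3 replicate 1 (adjusted p = 0.058) or 2 (0.074). Both genes had no overlap between the groups, and without EV replicate 1 each of these lists had 2 induced genes. BCAT2 overlaps AT1G10090.

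PUB19, a U-box ubiquitin ligase that restrains ABA responses, was at 222 and 230.4 CPM with ABF3 and 58.3, 85.2 and 70.8 CPM with EV (log2FC 1.66, SE 0.21, adjusted p = 7.3e-04), and RHA2B, a RING ligase that promotes them, at 48.7 and 50.9 CPM with ABF3 and 19.1, 32.5 and 27.2 CPM with EV (log2FC 0.92, SE 0.18, adjusted p = 0.015). These were 2 of 9 ligases tested. JAZ7, of the JAZ repressors of jasmonate signalling, was at 50.1 and 50.6 CPM with ABF3 and 21.6, 27.3 and 26.8 CPM with EV (log2FC 0.99, SE 0.20, adjusted p = 0.018), the 1 induced of 11 tested. RHA2B and JAZ7 were not called without ABF3 replicate 1 (adjusted p = 0.11 and 0.14) or without ABF3 replicate 2 (0.12 and 0.13). None of the 8 proline genes or the 11 HD-Zip class I factors tested passed in edgeR with all libraries, where 3 and 4 of them had an unadjusted p under 0.05 and DESeq2 called 0 and 1, and their medians were 0.12 and 0.85.

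The other TFs of batch 3 give levels of the same genes under the same treatment. Against the 15 libraries of DREB2A, FBH3, GBF2, GBF3 and HB7 together as control, in an edgeR fit of ABF3 against those libraries, 341 of 21386 genes (1.59%) were induced, 187 of them among the 316, and 310 of the 316 had a positive log2FC. In 14 of the 15 genes with the largest rise both ABF3 libraries lay above all 15 others. These genes were picked by high values in the same ABF3 libraries, and the share over all genes is not given here. On a scale set over the 20 libraries of batch 3, ABCG25 was at 42.8 and 71.2 CPM with ABF3 and at most 6.70 CPM elsewhere, in FBH3 (log2FC against the other TFs 4.76, adjusted p = 5.0e-05). AT5G50360 was at 131 and 137 CPM with ABF3 and at most 11.6 CPM elsewhere, in HB7 (4.38, 6.0e-09). PP2CA was at 506 and 593 CPM with ABF3 and at most 177 CPM elsewhere, in DREB2A (2.00, 7.1e-09). In these 3 genes ABF3 stood alone above the rest among the TFs of batch 3 only. They also rose with ABF1 against the EV libraries of batch 1. The log2FC there was 4.05 for ABCG25, 3.88 for AT5G50360 and 1.47 for PP2CA (edgeR, adjusted p = 1.4e-04, 2.6e-05 and 0.0064).

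HSFC1 stood at 3 separate levels. It was at 216 and 245 CPM with ABF3, at 27.5 to 31.3 CPM with DREB2A, a TF of dehydration and heat, and at 2.22 to 7.91 CPM in the other TF libraries (4.50, 3.8e-05 against all 15). AT4G27560 was the exception among the 15, with 28.1 to 35.1 CPM in DREB2A against 15.3 and 18.17 CPM with ABF3. Of the 36 induced genes on the lists 28 had both ABF3 libraries above all 15, and these too were picked by high values in the ABF3 libraries. CYP707A1 is among the 28 by a narrow margin, at 273 and 287 CPM with ABF3 and 248 to 271 CPM with HB7. The 8 induced list genes outside the 28 were AFP2, TMAC2, CYP707A3, ERD10, NAC055, NAP, NAC102 and RHA2B. TMAC2 reached 265 CPM with FBH3, a bHLH TF, against 105 and 149 CPM with ABF3, and CYP707A3 reached 557 CPM with FBH3 against 303 and 325 CPM. FBH3 and ABF3 share the EV libraries of this batch but not these TF libraries.

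Among the falls, AT2G37810 went the other way in FBH3, at 242 to 355 CPM there and at 22.5 and 28.9 CPM with ABF3, where the EV libraries held 45.7 to 81.5 CPM. EDS16 was at 45.9 and 51.8 CPM with ABF3, and DREB2A, at 46.9 to 79.1 CPM, overlapped it, while the EV libraries held 97.0 to 136 CPM. AATP1 was at 35.04 and 47.8 CPM with ABF3, at a median of 46.5 CPM with HB7 and at 98.6 to 113 CPM with EV. AT5G25260 was at 27.5 and 36.4 CPM with ABF3 and 57.5 to 79.3 CPM with EV. Its medians were 28.9, 29.3, 30.4 and 36.9 CPM with DREB2A, FBH3, GBF2 and HB7. The low level of these genes was thus not particular to ABF3. Of the 10 falls named by size, only WRKY70 and AT2G04070 had both ABF3 libraries below all 15 other TF libraries. Of the 47 repressed genes 45 were also negative and 5 also passed against the other TFs (log2FC −1.05 and adjusted p = 0.17 for EDS16).

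ABF1, the nearest relative of ABF3 in the series, was assayed in batch 1 against the EV libraries of that batch, so the difference between the responses also spans batches. It was tested as an interaction in edgeR over both sets of libraries. Of 20334 genes 0 (0%) passed, with an unadjusted p under 0.05 in 1265, and DESeq2 called 36, of which 26 were higher in ABF3. All 15 of the largest rises were positive in ABF1, and 9 of the 10 falls named by size were negative. The share of such signs over all genes is not given here. The difference, ABF3 minus ABF1, was above 0 in 300 of the 316 induced genes, which were called in ABF3, and in 10566 of all 20334 genes. SIP2 had nearly equal values, log2FC 2.59 in ABF3 and 2.51 in ABF1 (difference 0.08, SE 0.33). AT5G50360 had 5.03 and 3.88, and HSFC1 4.98 and 4.05 (difference 0.93, SE 0.34). A difference that misses the threshold here does not show that the TFs act alike.

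The widest gap among the named genes was in ALMT12, with 9.02 in ABF3 and 2.39 in ABF1 (difference 6.63, SE 1.099, adjusted p = 0.086). EM1 had 1.33 and 0.09 (difference 1.24, SE 0.28), PUB19 1.66 and 0.41 (1.25, SE 0.28), RHA2B 0.92 and −0.19 (1.11, SE 0.24) and HSFA1E 1.68 and 0.70 (0.98, SE 0.21), each with an adjusted p of 0.46. AT1G27461 pointed the other way, with 5.22 in ABF3 and 7.57 in ABF1 (difference −2.35, SE 1.20). None of these differences passed in edgeR.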

How the data were processed

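Libraries of sorted root protoplasts were analysed from the authors' deposited tables, which hold raw read counts per gene without normalization. According to the labels and the submitters' processing notes, reads were aligned to TAIR10 with HISAT2 2.0.5, counted per gene with GenomicFeatures and GenomicAlignments, and tested with DESeq2 1.22.1. Whether the counting used strand is not given in the sources used here. The tables list 33016 genes, and 32795 of them were found in the RefSeq annotation of TAIR10.1, which gave names, coordinates and promoter windows.

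Total counts ran from 12944485 to 23251214 in the 5 libraries compared. ABF3 was compared with EV by edgeR 4.0.16 (R 4.3.3), using TMM normalization, filterByExpr with a minimum count of 10, the quasi-likelihood test, an additive batch term with all 9 EV libraries, and Benjamini-Hochberg adjustment over all 20066 genes tested. The authors' design was TF plus batch as well, and their removal of genes that respond to CHX was not repeated. CPM values of single libraries were scaled by TMM over these 11 libraries, apart from levels in other TFs of batch 3, which were scaled over its 20 libraries. Folds against 0 counts use 3 counts over the EV group. The script was tested on simulated data.

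Genes named are ABF3 itself, the 15 called genes with the largest positive and the 10 with the largest negative log2FC among those whose mean log2 CPM was 1 or more, with no overlap between the groups, and genes of the lists. Members and lists were chosen with earlier results of these data known. The alternatives were DESeq2 1.42.0, its size factors in edgeR, no filter, EV of batch 3 only, a single model over batch 3, the replicate number as a block, the other TF libraries in place of EV, 7 rDNA loci left out, and each library left out in turn. No pair of replicates held identical values (chi-square per degree of freedom at least 16.9). Replicate numbers 1 and 2 are shared by ABF3 and EV, and 2 pairs do not establish a pairing.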

Additional observations from a re-analysis of the deposited data

How the results depend on the processing

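The counts of 316 induced and 47 repressed genes moved to 547 and 256 with DESeq2, to 106 and 2 with the EV libraries of batch 3 only, and to 477 and 137 in a single model over batch 3. Without the filter on low counts 454 genes were induced and 78 repressed. With DESeq2's size factors in edgeR they were 343 and 49, without the rDNA loci 353 and 42, and with the other TF libraries as control 341 and 54. With 1 library left out in turn the counts ran from 93 to 503 and from 3 to 242, and with EV of batch 3 only and without EV replicate 1 they were 511 and 137. All 316 stayed positive and all 47 negative in every fit but the one with the other TFs as control. With the replicate number as a block the counts were 174 and 16, and with the replicate block in the single model 490 and 173. The deviations of same-numbered libraries correlated at 0.143 and 0.101, but ABF3 replicate 2 also correlated with EV replicate 3 at 0.139, so the numbers were not taken as pairs. The difference from ABF1, with 0 calls, gave 36 with DESeq2, 2 without EV replicate 1 and 0 without either ABF3 library. The share of induced genes with an ABRE word was 43.4%, and 31.0% for the G-box CACGTG, 62.0% for ACGTG, 35.8% over the genes called by DESeq2 and 37.8% over those called without EV replicate 1, where all genes tested held the G-box in 8.63% and ACGTG in 27.8% of windows. Of 1050 values of the 70 named genes that were called, 843 kept their call, 204 kept their direction only and 3 reversed, all with the other TF libraries as control. GBF2 went from 3.37 to −1.39 (adjusted p = 0.86) and GBF3 from 1.79 to −1.41 (0.81), where that control holds the libraries transfected with these genes. NAP went from a log2FC of 1.13 to −0.013 (adjusted p = 0.997), where HB7 held up to 327 CPM. The cause of the other changes was not tested. With 2 ABF3 libraries, the depth and low values in EV replicate 1 limit what can be said of genes with few counts.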

Other observations

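Other gene families among the called genes were chosen after their values were seen, and they are described without a test of the family. Over all genes tested 1.57% were induced and 0.234% were repressed. In the MAPKKK13 to MAPKKK21 group, kinases at the head of MAP kinase cascades, 4 of 9 genes were induced by edgeR's test. MAPKKK18, which is known to be raised by ABA in Arabidopsis, was at 115 and 128 CPM with ABF3 and 22.7, 22.6 and 16.9 CPM with EV (log2FC 2.56, SE 0.21, adjusted p = 2.3e-05), MAPKKK17 at 130.3 and 146 CPM with ABF3 and 9.18, 19.9 and 23.5 CPM with EV (log2FC 2.96, SE 0.42, adjusted p = 0.0015), MAPKKK16 at 81.7 and 98.3 CPM with ABF3 and 12.6, 18.1 and 17.1 CPM with EV (log2FC 2.49, SE 0.18, adjusted p = 6.1e-06) and MAPKKK13 at 78.0 and 94.4 CPM with ABF3 and 34.5, 28.6 and 24.2 CPM with EV (log2FC 1.57, SE 0.19, adjusted p = 3.5e-04). The ABF3 libraries lay above all EV libraries in the 4 genes, and each kept its call with any of the 5 libraries left out. Against the other TFs of batch 3, MAPKKK16, MAPKKK17 and MAPKKK18 passed (log2FC 2.61, 2.67 and 2.79) and MAPKKK13 did not (0.96, adjusted p = 0.63). The other 5 members had a log2FC from −0.24 to 0.39 and did not pass.

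Other TFs rose as well. GBF2 and GBF3 are bZIP factors that bind the G-box. GBF2 was at 96.1 and 139 CPM with ABF3 and 8.97, 13.8 and 11.01 CPM with EV (log2FC 3.37, SE 0.26, adjusted p = 1.0e-05) and GBF3 at 274 and 356 CPM with ABF3 and 79.0, 99.4 and 94.6 CPM with EV (log2FC 1.79, SE 0.15, adjusted p = 1.7e-05), while GBF1 had a log2FC of 0.08 (adjusted p = 0.91). The groups did not overlap for GBF2 or GBF3, and 2 of the 3 genes tested were induced. The GBF3 locus overlaps AT2G46280. Of 4 CBF genes, 2 were induced. CBF1, of the DREB1 factors of the cold response, was at 74.2 and 64.8 CPM with ABF3 and 8.69, 15.2 and 16.99 CPM with EV (log2FC 2.34, SE 0.33, adjusted p = 0.0015). CBF4, which belongs to the same factors and is known to respond to drought, had a log2FC of 1.23 (adjusted p = 0.038) and was lost without ABF3 replicate 1 (0.32), ABF3 replicate 2 (0.14), EV replicate 2 (0.093) or EV replicate 3 (0.063). CBF2 (log2FC 1.11, adjusted p = 0.12) and CBF3 (2.698, 0.12) did not pass, and CBF3 passed without EV replicate 1 (2.3e-05).

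Of 4 carotenoid hydroxylase genes, 2 rose, BETA-OHASE 1 and BETA-OHASE 2, which make the zeaxanthin from which ABA is derived. BETA-OHASE 1 was at 36.3 and 31.2 CPM with ABF3 and 1.96, 4.15 and 3.84 CPM with EV (log2FC 3.32, SE 0.36, adjusted p = 1.7e-04) and BETA-OHASE 2 at 15.1 and 13.7 CPM with ABF3 and 0, 0.547 and 1.02 CPM with EV (log2FC 4.68, SE 0.91, adjusted p = 0.015). Without EV replicate 1 the log2FC was 3.07 and 4.19. Their ABF3 libraries were above all EV libraries, and BETA-OHASE 2 was lost without ABF3 replicate 1 (adjusted p = 0.15), ABF3 replicate 2 (0.11) or EV replicate 2 (0.055). LUT5 (log2FC 1.75, adjusted p = 0.62) and LUT1 (−0.19, 0.53), whose ABF3 libraries lay below all EV libraries, did not pass. BETA-OHASE 2 overlaps AT5G52560.

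Besides EDS16 and WRKY70, a further 2 genes of salicylic acid and immune signalling were repressed. EDS5, the transporter that exports the isochorismate route's product from plastids, was at 127 and 120.0 CPM with ABF3 and 159, 204 and 206 CPM with EV (log2FC −0.62, SE 0.14, adjusted p = 0.037), and AT4G26120, a BTB/POZ and ankyrin repeat protein, at 61.6 and 63.6 CPM with ABF3 and 102, 104 and 106 CPM with EV (log2FC −0.73, SE 0.13, adjusted p = 0.0085). Of 17 such genes 14 were tested, 4 were repressed by edgeR and 4 by DESeq2, and the median log2FC was −0.35. Without EV replicate 1 there were 7 repressed. The EDS5 locus overlaps AT4G39040. EDS5 and AT4G26120 lost their call without ABF3 replicate 1 (adjusted p = 0.21 and 0.12) or 2 (0.23 and 0.081), and EDS5 also without EV replicate 2 (0.091) or 3 (0.11).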
